A study of Mus musculus with 6 samples.

Results

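The let-7 family of mature microRNAs (miRNAs) was described in the renal cortex of mice on a steatohepatitis-inducing diet with and without tofogliflozin. Its 10 members, mmu-let-7a-5p, mmu-let-7b-5p, mmu-let-7c-5p, mmu-let-7d-5p, mmu-let-7e-5p, mmu-let-7f-5p, mmu-let-7g-5p, mmu-let-7i-5p, mmu-let-7k and mmu-miR-98-5p (written below without the species prefix), were taken by name, and all 10 were present among the 1900 mature names of the count tables. All 10 also passed the filter on low counts and were tested. Of these names 3, let-7a-5p, let-7c-5p and let-7f-5p, were listed under 2 hairpins each, which made 13 rows in all. For these the largest count per library was used, and the same was done for every other name with several rows.

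Small RNA was sequenced in 6 libraries, each from a separate C57BL/6 mouse. In the NASHTofo group, 3 mice received the diet labelled HF/HC/HS/BA with tofogliflozin for 8 weeks. In the NASH group, 3 mice received the same diet without the drug for 8 weeks. All 6 mice therefore carried the dietary load, and mice on ordinary chow are not part of the comparison. The diet is high in fat and cholesterol and contains bile salt, and the HS part of its label is not expanded here. Tofogliflozin inhibits the sodium-glucose cotransporter SGLT2 of the proximal tubule. The sources used here give neither age nor sex nor dose.

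A miRNA pairs with messages mainly through its seed, the stretch from base 2 to base 8 at its 5′ end, so members of a family that share the seed are read as having overlapping targets. Let-7 was found in Caenorhabditis elegans as a regulator of developmental timing. In mammals it accumulates as cells differentiate, represses growth-promoting messages such as Hmga2 and those of Ras and Myc, and is itself held back by LIN28, which blocks the maturation of its precursors. Differentiated epithelia, including those of the kidney, are rich in let-7.

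The mature sequences are shown because the family is defined by them and because its members are so alike that their reads are hard to keep apart. They come from RefSeq (GRCm38.p6, the release of the build mm10 used for the files), where all 10 names were matched, and the seed is in capitals.
let-7f-5p: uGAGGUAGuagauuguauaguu
let-7c-5p: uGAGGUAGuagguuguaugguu
let-7g-5p: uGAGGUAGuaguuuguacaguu
let-7i-5p: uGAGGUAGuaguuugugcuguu
let-7a-5p: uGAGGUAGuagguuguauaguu
let-7b-5p: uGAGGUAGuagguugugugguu
let-7d-5p: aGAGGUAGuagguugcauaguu
let-7e-5p: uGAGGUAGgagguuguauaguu
miR-98-5p: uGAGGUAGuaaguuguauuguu
let-7k: uGAGGUAGgagguugugug
The seed GAGGUAG was the same in all 10. Counted from 1 at the 5′ end and with the base of let-7a-5p first, let-7c-5p differed from let-7a-5p by A19G alone, let-7e-5p by U9G alone and let-7f-5p by G12A alone. The others carried more changes: A17G and A19G in let-7b-5p, U1A and U16C in let-7d-5p, G12U and U18C in let-7g-5p, and G11A and A19U in miR-98-5p. Let-7i-5p, with G12U, A17G, U18C and A19U, was the farthest from let-7a-5p of the members of 22 bases. Over these 9 members the 36 pairs differed at 1 to 6 bases, 4 pairs at 1 base and 10 pairs at 2. Since the aligner and the mismatches it allowed are not known here, reads with a sequencing error could have been listed under a neighbour.

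The 13 hairpins lie on 8 chromosomes, and their mm10 intervals were the same in RefSeq and in GENCODE M21. Mirlet7a-1 (chromosome 13, 48538179 to 48538272), Mirlet7f-1 (48537829 to 48537917) and Mirlet7d (48536012 to 48536114), all on the minus strand, lie within 2261 bases and in annotated exonic sequence of the long noncoding gene 6720427I07Rik. Mirlet7c-2 (chromosome 15, 85706603 to 85706697) and Mirlet7b (85707319 to 85707403), on the plus strand, overlap exons of the transcript Lncppara. The gene Ppara, whose product is named in the title of the series, starts 27580 bases beyond the end of Mirlet7b on the same strand. Mirlet7f-2 (chromosome X, 151912346 to 151912428) and Mir98 (151913214 to 151913321) are both intronic in Huwe1, plus strand. Mirlet7g (chromosome 9, 106178840 to 106178927) is intronic in Wdr82, and Mirlet7e (chromosome 17, 17830352 to 17830444) is intronic in Spaca6, next to Mir99b and Mir125a. Mirlet7c-1 (chromosome 16, 77599657 to 77599750) lies in an intron of Mir99ahg next to Mir99a, and Mirlet7a-2 (chromosome 9, 41536716 to 41536811) in an intron of 3110039I08Rik near Mir100. Mirlet7i (chromosome 10, 122985640 to 122985724) overlaps an exon of D630033A02Rik, and the hairpin of let-7k (chromosome 5, 147283189 to 147283298) lies in no longer annotated gene.

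Total counts, with the largest row per name, were 13766173, 6643638 and 17241972 in NASHTofo replicates 1, 2 and 3, and 22886200, 14276384 and 15223414 in NASH replicates 1, 2 and 3. NASHTofo replicate 2 had the fewest counts and was the outlying library: its score on the first principal component (52.0% of variance) was 13.8, beside -6.17 to 0.141 in the other 5. Levels are given as CPM, the counts of a miRNA scaled to a library of standard size with TMM factors. The 5 miRNAs taken as tubule markers were present in all 6 libraries. The highest were miR-10a-5p at 82722 to 94951 CPM and miR-192-5p at 44711 to 54110 CPM. The lowest was miR-204-5p, at 373 to 492 CPM in NASHTofo libraries and 250 to 291 CPM in NASH libraries. Their presence does not test the kidney label, since no other tissue was compared. The liver marker miR-122-5p was at 245 CPM in NASHTofo replicate 2, against 40.7 to 78.6 CPM in the other libraries. Of the smooth muscle markers, miR-143-3p was lowest in that library (31421 CPM, against 52227 to 58181 CPM) and miR-145a-5p highest (423 CPM, against 316 to 363 CPM). In whole cortex, fewer cells of a type and less RNA per cell cannot be told apart.

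Together the 10 members took 26.1% ± 0.873 of all miRNA counts (SD, n = 6 libraries). The family share of the library was 25.7%, 25.8% and 26.7% in NASHTofo replicates 1, 2 and 3, and 26.7%, 27.1% and 24.7% in NASH replicates 1, 2 and 3. The groups overlapped. The mean share was 26.1% ± 0.540 with tofogliflozin and 26.2% ± 1.27 on the diet alone (SD, n = 3 each), a difference of -0.13 percentage points that is smaller than the spread within either group. The sign of this difference turned when NASHTofo replicate 1, NASHTofo replicate 2, NASH replicate 1 or NASH replicate 2 was left out. Over the TMM-scaled library size, the scale of the CPM values, the difference was -0.842 points. On that scale the family stood at 254354 to 261792 CPM in NASHTofo libraries. These values lay inside the NASH range of 244667 to 282639 CPM. When the rows of a name were summed in place of taking the largest, the share ran from 31.2% to 32.6% in NASHTofo libraries and from 29.96% to 32.9% in NASH libraries, so the level of the family depends on how repeated rows are read.

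The level of single members spanned more than 3 orders of magnitude, and 5 of them made up 90.4% of the family. The order is one of reads, which are not divided by length since 9 members have the same length. How far reads per molecule differ between the sequences, through ligation, amplification or listing under a neighbour, was not tested. Let-7f-5p was the most abundant at 84243 ± 4353 CPM (SD, n = 6 libraries), rank 3 of all 460 miRNAs tested. Let-7c-5p (45627 ± 4215 CPM, rank 7), let-7g-5p (39185 ± 2877 CPM, rank 10), let-7i-5p (34321 ± 2510.3 CPM, rank 11) and let-7a-5p (32793 ± 2286 CPM, rank 12) followed. The order of neighbours among these 4 is not fixed by the data: let-7g-5p stood above let-7c-5p in NASH replicate 3, let-7i-5p above let-7g-5p in NASHTofo replicate 2, and let-7a-5p above let-7i-5p in NASHTofo replicate 3. Below them, let-7b-5p (14230.1 ± 1519.9 CPM), let-7d-5p (8639.6 ± 502 CPM), let-7e-5p (1790.0 ± 114 CPM), miR-98-5p (524 ± 17.3 CPM) and let-7k (28.3 ± 4.05 CPM) kept places 6 to 10 in each of the 6 libraries. Members from clustered hairpins differed in level by unequal amounts. Let-7f-5p and miR-98-5p, which share the Huwe1 intron on chromosome X, differed by 7.24 to 7.42 in log2 CPM over the libraries. The difference was -1.48 to -1.26 for let-7a-5p minus let-7f-5p and -3.35 to -3.17 for let-7d-5p minus let-7f-5p. For let-7b-5p minus let-7c-5p it was -1.76 to -1.53. Let-7f-5p has a second source on chromosome 13, and let-7a-5p and let-7c-5p also have a second source.

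**Figure D1:**
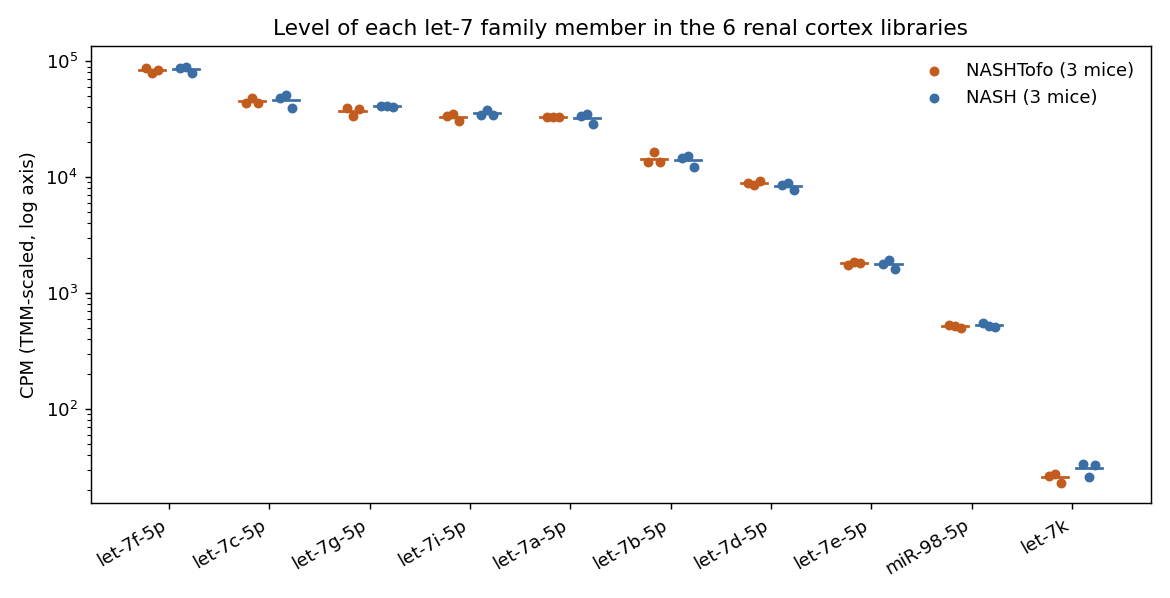
TMM-scaled CPM of the 10 members on a log axis, ordered by mean level, with a point for each library and a bar for the mean of each group. Let-7f-5p leads at 84243 CPM and let-7k closes at 28.3 CPM, and the groups lie close together at every member.

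The comparison asked whether tofogliflozin changed the level of any member under the same diet. No member passed the threshold, an adjusted p of 0.05 in edgeR's quasi-likelihood test over all 460 miRNAs tested, and the adjusted p of the members ran from 0.859 to 0.988. The background was also empty, with 0 of 460 miRNAs called (0%) by edgeR. At an unadjusted p under 0.05, edgeR had 0 of 10 members and 23 of 460 miRNAs (5%). DESeq2 called 1 miRNA of the whole table, which was not a member, and limma-voom called 0. The median log2 fold change, NASHTofo minus NASH, was -0.03 over the members, with 4 above 0 and 6 below, and -0.0052 over all tested miRNAs. Among the 59 tested miRNAs with a mean of at least 1000 CPM, a level that 8 of the members reach, it was -0.03.

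Let-7f-5p, the main let-7 of this tissue, was at 87127, 78908 and 83474 CPM in NASHTofo replicates 1, 2 and 3, and at 86755, 89637 and 79555 CPM in NASH replicates 1, 2 and 3. The groups overlapped throughout, and the log2 fold change came to -0.04 ± 0.10 (SE; 95% interval -0.27 to 0.20). Let-7c-5p was at 43298, 47712 and 43832 CPM in NASHTofo replicates 1, 2 and 3, and at 47823, 51509 and 39591 CPM in NASH replicates 1, 2 and 3. Here the highest and the lowest value both came from NASH mice, and the log2 fold change was -0.04 ± 0.12 (SE; interval -0.33 to 0.24). Let-7a-5p, the reference sequence of the family, was at 33329, 32971 and 32729 CPM in NASHTofo replicates 1, 2 and 3, and at 33882, 35321 and 28524 CPM in NASH replicates 1, 2 and 3. The 3 NASHTofo values lay inside the NASH range, with a log2 fold change of 0.02 ± 0.11 (SE; interval -0.24 to 0.28).

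Let-7g-5p was the single member whose groups did not overlap in CPM. It was at 39569.7, 33631 and 39024 CPM in NASHTofo replicates 1, 2 and 3, and at 41183, 41493 and 40208 CPM in NASH replicates 1, 2 and 3. The distance between the closest libraries of the groups was small, and NASHTofo replicate 2 was the low one. The log2 fold change was -0.13 ± 0.10 (SE; interval -0.37 to 0.11; adjusted p = 0.873 by edgeR). An exact 2-sided permutation test gave p = 0.1, the smallest that 3 against 3 mice allow. In CPM, groups did not overlap for 1 of 10 members, beside 55 of all 460 miRNAs tested (12%). Of these 55, 32 were lower (6.96% of all tested) and 23 higher (5%) in NASHTofo. As a percent of all library counts, without TMM, let-7g-5p overlapped (4.093% in NASHTofo replicate 3, 4.088% in NASH replicate 1). On that scale let-7d-5p did not overlap (0.857% to 0.973% in NASHTofo, 0.787% to 0.852% in NASH). Without NASHTofo replicate 2 the log2 fold change of let-7g-5p was -0.06. That library also had the miR-122-5p and miR-143-3p levels given above, and their part in this value was not tested.

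Let-7i-5p was at 33784, 34724 and 30305 CPM in NASHTofo replicates 1, 2 and 3, and at 34314, 38173 and 34625 CPM in NASH replicates 1, 2 and 3. NASHTofo replicate 3 was the lowest of the 6 libraries, and the log2 fold change was -0.12 ± 0.11 (SE; interval -0.36 to 0.13). It was -0.03 without NASH replicate 2 and also without NASHTofo replicate 3. Let-7g-5p, let-7i-5p and let-7k were the members with a log2 fold change under -0.1, and the intervals of all of them spanned 0. Let-7g-5p and let-7i-5p share G12U and U18C, and whether this bears on their values was not tested.

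Let-7b-5p was at 13484, 16520.2 and 13388 CPM in NASHTofo replicates 1, 2 and 3, and at 14568, 15191 and 12229 CPM in NASH replicates 1, 2 and 3. NASHTofo replicate 2 was the highest, and the log2 fold change of 0.05 ± 0.13 (SE; interval -0.26 to 0.36) became -0.06 without it, and -0.03 without NASH replicate 3, the lowest library. Let-7d-5p was at 8883, 8486 and 9275 CPM in NASHTofo replicates 1, 2 and 3, and at 8588, 8823 and 7782 CPM in NASH replicates 1, 2 and 3. It had the highest log2 fold change of the family, 0.08 ± 0.10 (SE; interval -0.16 to 0.32; adjusted p = 0.878 by edgeR), and the groups overlapped. This value was 0.15 without NASH replicate 2, 0.04 without NASH replicate 3 and 0.13 without NASHTofo replicate 1, where let-7b-5p was higher at 0.15. Let-7b-5p was also higher without NASHTofo replicate 3, at 0.13 beside 0.07 for let-7d-5p. Let-7e-5p was at 1761, 1867 and 1799 CPM in NASHTofo replicates 1, 2 and 3, and at 1764, 1943 and 1606 CPM in NASH replicates 1, 2 and 3. Its NASHTofo values fell within the NASH range, with a log2 fold change of 0.03 ± 0.11 (SE; interval -0.23 to 0.29).

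MiR-98-5p was at 529.9, 522 and 503 CPM in NASHTofo replicates 1, 2 and 3, and at 554, 523 and 514 CPM in NASH replicates 1, 2 and 3. It was the steadiest member, with a coefficient of variation within groups of 3.42%, and its log2 fold change was -0.03 ± 0.11 (SE; interval -0.29 to 0.22). Let-7k was at 26.5, 27.7 and 23.2 CPM in NASHTofo replicates 1, 2 and 3, and at 33.4, 25.96 and 32.9 CPM in NASH replicates 1, 2 and 3. NASH replicate 2 lay among the NASHTofo values, and the log2 fold change was -0.26 ± 0.18 (SE; interval -0.67 to 0.16; adjusted p = 0.859 by edgeR). This is the lowest log2 fold change in the family and also the one with the widest interval, and it was -0.16 without NASHTofo replicate 3. Over the other 9 members the intervals reached from a fold of 0.772, for let-7g-5p, to a fold of 1.28, for let-7b-5p, so changes beyond these sizes lie outside the intervals.

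**Figure D2:**
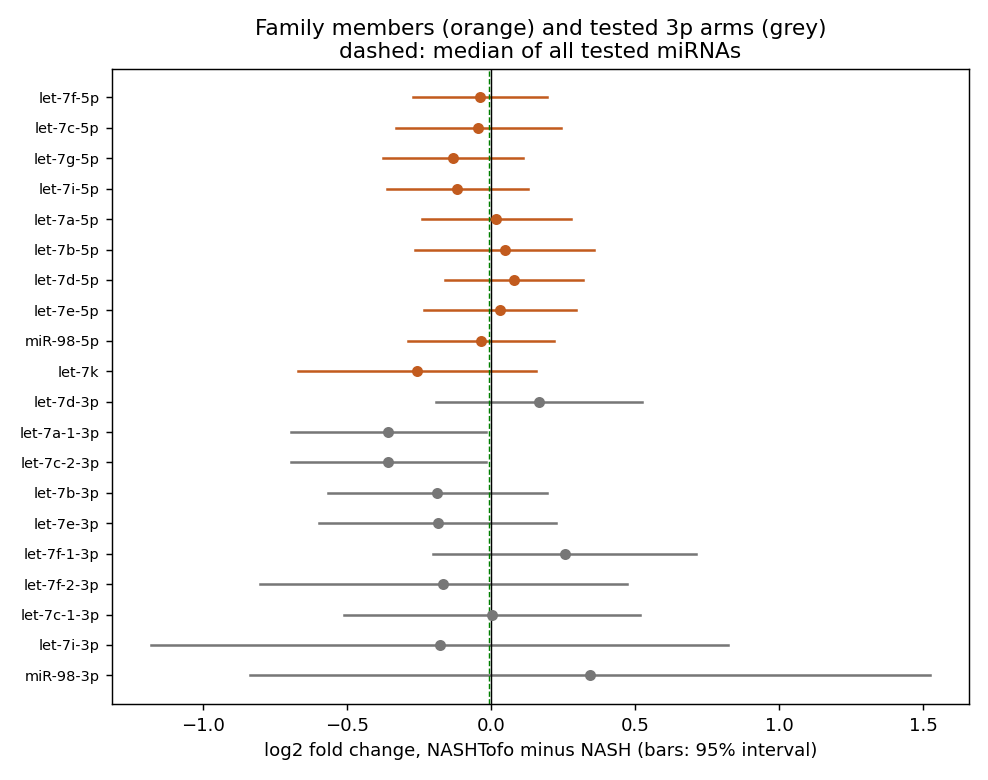
Log2 fold change (NASHTofo minus NASH) with its 95% interval from edgeR for the 10 members and for the 10 tested 3p arms, with a dashed line at the median of all 460 tested miRNAs. Every member's interval spans 0, and of the 3p arms those of let-7a-1-3p and let-7c-2-3p lie below 0, neither past the threshold after adjustment (adjusted p = 0.854 by edgeR).

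The members varied less than most miRNAs. The median coefficient of variation of CPM within groups was 6.75% over the 10 members and 23.2% over all 460 tested miRNAs. Over the 59 with a mean of at least 1000 CPM it was 11.5%. These values are a description without a test. Abundant miRNAs carry less counting error, and the part of this in the differences was not tested. Departures from the mean of each member over the 6 libraries ran from -0.27 to 0.25 in log2 CPM. By library, 5 members (let-7a, let-7b, let-7c, let-7d and let-7e) had their lowest value in NASH replicate 3, 3 in NASHTofo replicate 3 and 2 in NASHTofo replicate 2, while 6 had their highest in NASH replicate 2, 2 in NASH replicate 1, 1 in NASHTofo replicate 2 and 1 in NASHTofo replicate 3. In NASH replicate 3 let-7a-5p, let-7b-5p and let-7c-5p were 0.20, 0.21 and 0.20 below their means, whereas let-7g-5p was 0.04 and let-7i-5p 0.02 above. In NASHTofo replicate 2 let-7b-5p was 0.22 above its mean and let-7g-5p 0.22 below.

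**Figure D3:**
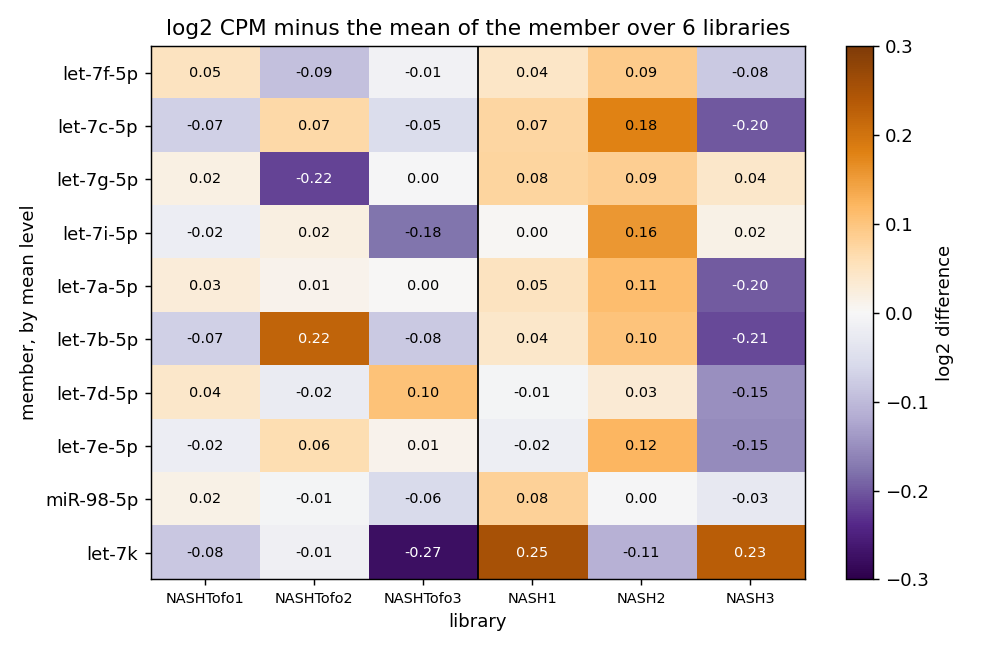
Log2 CPM of each member minus its own mean over the 6 libraries, members by mean level from top to bottom and NASHTofo libraries left of the line. NASH replicate 3 is low for let-7a-5p to let-7e-5p (-0.15 to -0.21), and let-7k has the widest range, 0.53 in log2 CPM.

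Pairs of members differed in how constant their ratio was. The ratio of let-7a-5p to let-7e-5p, which differ at 1 base, had the smallest spread over the 6 libraries, an SD of 0.05 in log2 with values of 4.14 to 4.26. Next came let-7c-5p to let-7e-5p and let-7a-5p to let-7c-5p, both with an SD of 0.06. The 6 most variable ratios all involved let-7k, up to an SD of 0.28 against let-7d-5p.

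The make-up of the family was compared by each member's share of the family counts, which does not depend on the scaling of the libraries. Let-7f-5p held 33.3%, 30.9% and 32.8% in NASHTofo replicates 1, 2 and 3, and 32.2%, 31.7% and 32.5% in NASH replicates 1, 2 and 3. Let-7c-5p averaged 17.5% ± 1.09 with tofogliflozin and 17.4% ± 1.07 on the diet alone, and let-7g-5p 14.5% ± 1.19 with tofogliflozin and 15.5% ± 0.891 on the diet alone (SD, n = 3 each). Let-7i-5p averaged 12.8% ± 0.846 with tofogliflozin and 13.5% ± 0.710 on the diet alone (SD, n = 3 each). In these 4 the groups overlapped.

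For 2 of the 10 members the shares of the groups did not overlap. A share of the family has no background over all miRNAs, but in CPM 12% of all 460 tested did not overlap. The shares add up to a fixed total, so they are tied to each other. In CPM the groups of both members overlapped. Let-7a-5p held 12.7%, 12.9% and 12.9% of the family in NASHTofo replicates 1, 2 and 3, and 12.6%, 12.5% and 11.7% in NASH replicates 1, 2 and 3. The closest values were a fraction of a percentage point apart, and the mean difference of 0.594 points was 0.301 without NASH replicate 3. Let-7d-5p held 3.39%, 3.32% and 3.65% in NASHTofo replicates 1, 2 and 3, and 3.19%, 3.12% and 3.18% in NASH replicates 1, 2 and 3, a mean difference of 0.291 points. An exact 2-sided permutation test gave p = 0.1 for each, the smallest possible with 3 against 3 mice, and 10 shares were compared, so neither is a call. Let-7b-5p (5.63% ± 0.731 with tofogliflozin and 5.26% ± 0.227 on the diet alone), let-7e-5p (0.704% ± 0.0293 and 0.666% ± 0.0184), miR-98-5p (0.202% ± 0.00336 and 0.200% ± 0.0134) and let-7k (0.0100% ± 0.00088 and 0.0117% ± 0.00221) overlapped between the groups (SD, n = 3 each, NASHTofo and NASH in that order).

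**Figure D4:**
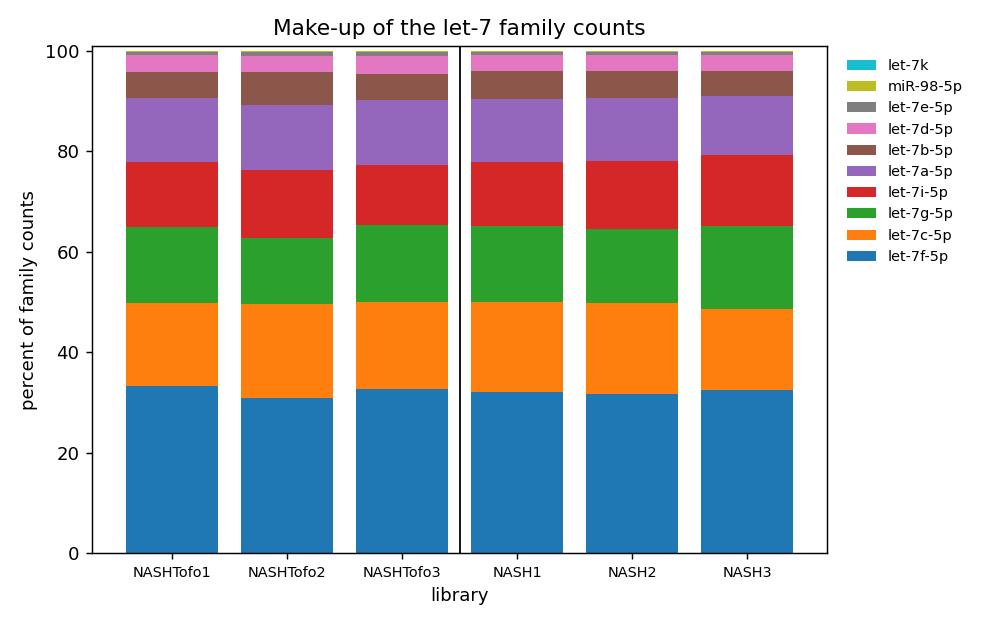
Percent of family counts held by each member in each library, stacked to 100%, with NASHTofo libraries left of the line. Let-7f-5p holds 30.9% to 33.3% in every library, and the 4 smallest members together form the thin top of each bar.

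Rows of one name under different hairpins were close to copies of each other for let-7a-5p and let-7c-5p but not for let-7f-5p. The row of let-7a-5p under the let-7a-2 hairpin held 99.0% to 99.5% of the counts of the row under let-7a-1, and the row of let-7c-5p under let-7c-1 held 98.5% to 99.6% of that under let-7c-2. For let-7f-5p, the row under the let-7f-1 hairpin of chromosome 13 held 89.6%, 84.1% and 92.7% of the row under let-7f-2 of chromosome X in NASHTofo replicates 1, 2 and 3, and 89.9%, 91.0% and 89.4% in NASH replicates 1, 2 and 3. The row under let-7f-2 was the larger in all 6 libraries. The hairpins are shown with the mature 5p arm in lower case and the next 6 bases in capitals, since these bases are what tells the copies apart at the end of the arm.
Mirlet7f-1: ugagguaguagauuguauaguuGUGGGG
Mirlet7f-2: ugagguaguagauuguauaguuUUAGGG
Mirlet7a-1: ugagguaguagguuguauaguuUUAGGG
Mirlet7a-2: ugagguaguagguuguauaguuUAGAGU
Mirlet7c-1: ugagguaguagguuguaugguuUAGAGU
Mirlet7c-2: ugagguaguagguuguaugguuUUGGGC
Both copies of let-7a and both of let-7c go on with a U, whereas let-7f-1 goes on with a G and let-7f-2 with a U. Whether this accounts for the difference between the let-7f rows was not tested.

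Let-7k is the odd member of the set, at 19 bases and without a neighbour. Over its 19 bases it differs from let-7b-5p by U9G alone and from let-7e-5p by A17G and A19G, the base of the longer member given first. Its counts came to 0.196%, 0.168% and 0.173% of those of let-7b-5p in NASHTofo replicates 1, 2 and 3, and to 0.229%, 0.171% and 0.269% in NASH replicates 1, 2 and 3. Relative to let-7e-5p they came to 1.503%, 1.49% and 1.29% in NASHTofo replicates 1, 2 and 3, and to 1.89%, 1.34% and 2.05% in NASH replicates 1, 2 and 3. Reads of either neighbour with a mismatch cannot be told apart from let-7k in these tables.

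Other names bear on the seed. A search of the mature sequences for the 7 seed bases found 1 further mouse name among those counted, miR-1961. It matches let-7a-5p over its first 11 bases, and let-7g-5p and let-7i-5p over a longer stretch. Whether reads of members were listed under miR-1961 was not tested.
miR-1961: uGAGGUAGuaguuagaa
It was at 45.2, 35.0 and 35.7 CPM in NASHTofo replicates 1, 2 and 3, and at 44.0, 38.5 and 46.7 CPM in NASH replicates 1, 2 and 3, above let-7k in each library. The groups overlapped (log2 fold change -0.15 ± 0.18 SE; adjusted p = 0.877 by edgeR), and the name was looked up after the data were seen. Let-7j carries the let-7 name but ends its seed with another base. Apart from that base and a longer 3′ end it has the sequence of let-7i-5p. Reads of let-7i-5p with a mismatch could have been listed under let-7j, which was not tested.
let-7j: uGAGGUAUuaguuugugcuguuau
It averaged 12.4 ± 5.16 CPM with tofogliflozin and 12.2 ± 1.08 CPM on the diet alone (SD, n = 3 each). MiR-202-3p, a gonadal relative of let-7, had 0 counts in every library, which allows up to 0.131 to 0.452 CPM at 3 counts.

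The opposite arms of the let-7 hairpins, the 3p or passenger strands, were far less abundant than the 5p arms of the same hairpins, except in let-7d. Of the 5p and 3p counts of the family, the 3p arms made up 0.738%, 0.659% and 0.791% in NASHTofo replicates 1, 2 and 3, and 0.766%, 0.563% and 0.644% in NASH replicates 1, 2 and 3, with the groups overlapping. Let-7d-3p alone supplied 86.4% to 89.2% of the 3p counts in NASHTofo libraries and 82.6% to 85.1% in NASH libraries. This separation was not tested, and in CPM the groups of let-7d-3p overlapped. The 3p arm of let-7d took 16.0%, 14.7% and 16.3% of the counts of its hairpin in NASHTofo replicates 1, 2 and 3, and 17.1%, 13.2% and 14.4% in NASH replicates 1, 2 and 3. In no other group of hairpins did the 3p share reach 1%: it was 0.774% ± 0.111 with tofogliflozin and 0.901% ± 0.0697 on the diet alone for let-7e, 0.428% ± 0.0613 and 0.503% ± 0.106 for let-7b, 0.176% ± 0.0179 and 0.223% ± 0.0306 for let-7a with let-7c, 0.203% ± 0.0184 and 0.148% ± 0.0860 for miR-98, and 0.0230% ± 0.00286 and 0.0204% ± 0.00362 for let-7f (SD, n = 3 each, NASHTofo and NASH in that order). Let-7i-3p had 6 to 34 counts in NASHTofo libraries and 27 to 37 in NASH libraries, beside 232832 counts or more of let-7i-5p. Let-7g-3p had 1 count in NASHTofo replicate 1 and 1 in NASH replicate 3 and none in the other libraries, where 0 counts allow a share of up to 0.00133% of the hairpin, and let-7a-2-3p had 2 counts in NASH replicate 3 and none elsewhere.

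**Figure D5:**
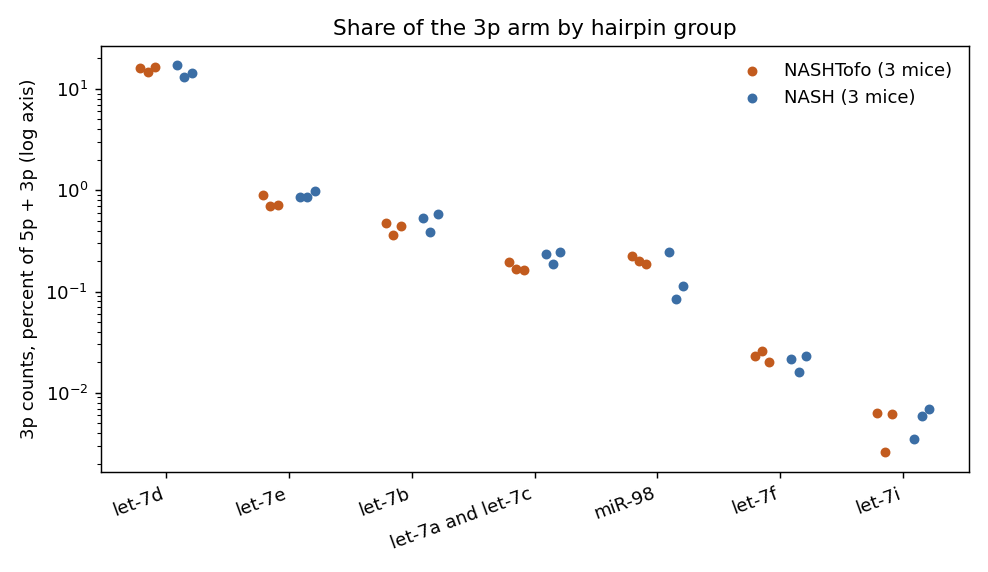
Counts of the 3p arm as a percent of 5p and 3p counts for each hairpin group (log axis), with a point for each library. Let-7d stands between 13.2% and 17.1%, and all other groups lie under 1%, while let-7g is left out because its 3p arm had 0 counts in 4 libraries.

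Let-7a-1-3p and let-7c-2-3p have the same mature sequence, shown with let-7d-3p, and nearly the same counts, so they stand for 1 molecule here (bases 2 to 8 in capitals).
let-7a-1-3p: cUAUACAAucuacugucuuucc
let-7c-2-3p: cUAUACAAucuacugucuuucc
let-7d-3p: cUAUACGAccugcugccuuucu
Let-7a-1-3p was at 146, 131 and 120.5 CPM in NASHTofo replicates 1, 2 and 3, and at 189, 158 and 161 CPM in NASH replicates 1, 2 and 3. The NASHTofo values were all below the NASH values, with a log2 fold change of -0.36 ± 0.15 (SE), an unadjusted p of 0.0418 and an adjusted p of 0.854 by edgeR, so the difference did not pass the threshold. The log2 fold change of let-7a-1-3p was -0.25 without NASH replicate 1 and -0.27 without NASHTofo replicate 3. It stayed below 0 under every alternative, from -0.39 to -0.25. Its unadjusted p by edgeR was 0.0484 without NASHTofo replicate 2. With any other library left out it was 0.0727 to 0.168. The log2 fold change of let-7c-2-3p was likewise -0.36 ± 0.15 (SE). Of the 12 names of 3p arms, 10 were tested, with 4 log2 fold changes above 0, 6 below, a median of -0.17 and 0 called (0% of all miRNAs). At an unadjusted p under 0.05 there were 2, the 2 names of the 1 molecule, beside 5% of all miRNAs. Let-7d-3p was at 0.17 ± 0.15 (SE), above 0 like let-7d-5p, and let-7b-3p at -0.19 ± 0.16 (SE). Single libraries moved both: without NASH replicate 1 let-7d-3p was at 0.34 (unadjusted p = 0.0484 and adjusted p = 0.956 by edgeR) and let-7b-3p at -0.07, while let-7d-3p was at 0.10 without NASH replicate 3 and at 0.25 without NASHTofo replicate 2.

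Some let-7 hairpins are made from the same transcripts as miR-99, miR-100 and miR-125, which have other seeds. Of the 11 names of these partners, 10 were tested, with 3 log2 fold changes above 0, 7 below, a median of -0.08 and 0 called. Their groups did not overlap for 3 of 10, beside 12% of all miRNAs. MiR-99a-5p, the neighbour of let-7c-1, was at 40500.1, 27394 and 45680.0 CPM in NASHTofo replicates 1, 2 and 3, and at 46277, 49744 and 45570.4 CPM in NASH replicates 1, 2 and 3. NASHTofo replicate 2 was the low library, and the log2 fold change of -0.32 ± 0.18 (SE; adjusted p = 0.854 by edgeR) was -0.13 without it. Let-7c-5p, which has a second source on chromosome 15, was not low in that library. MiR-125a-5p, beside let-7e, was at 14742, 14088 and 14303 CPM in NASHTofo replicates 1, 2 and 3, and at 12967, 13737 and 12452 CPM in NASH replicates 1, 2 and 3. All NASHTofo values were above the NASH values, with a log2 fold change of 0.14 ± 0.10 (SE; adjusted p = 0.859 by edgeR), which was 0.21 without NASH replicate 2. The other 2 partners whose groups did not overlap were lower in NASHTofo: miR-125a-3p, the opposite arm of the same hairpin, at -0.33 ± 0.18, and miR-125b-1-3p at -0.37 ± 0.17 (log2 fold change ± SE; adjusted p = 0.854 by edgeR for both). These 2 were named after their values were seen. MiR-99b-5p, whose hairpin like that of miR-125a-5p lies next to Mirlet7e, was at -0.06 ± 0.11, and miR-125b-5p at -0.09 ± 0.18 (log2 fold change ± SE).

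The miRNAs most like the family as a whole were found by the root mean square difference from the family sum in log2 CPM, each centred on its mean over the 6 libraries, among 127 other miRNAs with a mean of at least 100 CPM. MiR-106b-3p was the closest (0.05), followed by miR-10a-5p (0.06), miR-30b-3p, miR-30c-1-3p and miR-128-3p (0.07 each). The family sum itself moved little, so this measure picks miRNAs that were also steady over the libraries.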

How the data were processed

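Small RNA libraries from the renal cortex of 6 mice were analysed as 3 NASHTofo and 3 NASH samples, grouped by their titles. The authors deposited 1 table per library of raw read counts, without normalization, with 2033 rows that pair a mature miRNA with a hairpin. The build mm10 and cutadapt 1.14 are named per the submitters' processing notes. Which aligner, counter and miRBase version made the tables is not given in the sources used here. For 75 names with several rows the largest count per library was taken, so reads that fit several hairpins count once and reads specific to the smaller row are lost.

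The counts were fitted in R 4.3.3 by the quasi-likelihood test of edgeR 4.0.16 (TMM factors, filterByExpr with a smallest count of 10 and total of 15, Benjamini-Hochberg adjustment over 460 miRNAs, threshold 0.05), as NASHTofo minus NASH without covariates. In no library did the filter take more than 0.00905% of the counts. SE was obtained as the size of the log2 fold change over √F, with intervals at 95%. The exact permutation test has 20 arrangements. Exact Clopper-Pearson intervals of the family share were at most 0.0333 percentage points to either side, and intervals and limits of 0 counts cover counting error only. The fit was tested on simulated data.

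Named miRNAs were the 10 members, up to 4 of each related list by mean CPM, and the 5 most like the family sum; miR-1961 and let-7j were added. The members and lists were chosen with earlier results of these data known. Alternatives were other size factors, filters, tools (DESeq2 1.42.0, limma-voom in limma 3.58.1), readings of repeated rows, the replicate number as a block and each library left out. Same-numbered samples did not deviate together (r = 0.0027, -0.14 and -0.17), so the numbers were not treated as pairs.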

Additional observations from a re-analysis of the deposited data

How the results depend on the processing

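Counting a 3p sequence listed under 2 names under both was an alternative chosen after seeing the data. The cause of each shift was not tested unless the construction gives it. No member was called under any of the alternatives, and the smallest adjusted p of a member was 0.641. Over all miRNAs there were 10 calls of 1026 when no filter on low counts was used, 1 with DESeq2 and 0 under each of the other alternatives. A replicate block left 0 miRNAs and 0 members called, as in the fit without it, and the median of the members stayed at -0.03. Leaving out each library in turn gave medians of -0.07 to 0.05.

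Of 150 log2 fold changes of members under alternatives 15 changed sign, all of values near 0. With upper quartile size factors let-7a-5p was at -0.015 and let-7e-5p at -0.0060, and with no low-count filter let-7a-5p was at -0.0054. With a library left out the ranges that crossed 0 were -0.057 to 0.11 for let-7a-5p, -0.056 to 0.15 for let-7b-5p, -0.13 to 0.075 for let-7c-5p, -0.024 to 0.14 for let-7e-5p, -0.074 to 0.032 for let-7f-5p and -0.044 to 0.020 for miR-98-5p. Let-7d-5p stayed above 0 and let-7g-5p, let-7i-5p and let-7k below 0 in every alternative run. Of 135 values of 9 other named miRNAs 2 changed sign, both without NASHTofo replicate 2, and the ranges were -0.11 to 0.0084 for miR-99b-5p and -0.24 to 0.085 for miR-125b-5p.

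The difference in family share was between -0.854 and 0.314 percentage points when single libraries were left out, and -0.842 over TMM-scaled library sizes. Differences in share of family counts ran from -0.0527 to 0.607 points for let-7b-5p, from -0.501 to 0.574 for let-7c-5p, from -0.283 to 0.908 for let-7f-5p and from -0.0063 to 0.0062 for miR-98-5p, and let-7f-5p was at -0.134 with rows summed. Summing rows doubles the 5p counts of names with 2 rows, so the 3p share was 0.1002% for let-7a with let-7c and 0.0115% for let-7f. Depth limits the rare 3p arms, since miR-98-3p and let-7i-3p had 6 to 37 counts in a library.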
